A study of Mus musculus with 3 samples.

Results

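Early conventional type 1 dendritic cells (cDC1s) of mouse tumours were compared with resting cDC1s of the same tumours, gene by gene. The cells were taken from the cluster column of the deposited cDC1 table: clusters 4 and 1 made the early side, and clusters 5, 2, 3, 6 and 0 the resting side. The early side held 1332 cells and the resting side 3499, of 5806 cDC1s in that table and 30209 cell barcodes in the series. Early cells numbered 495 for WT, 431 for sGSN-/- and 406 for sGSN-/-Clec9a-/-, and resting cells 1476, 937 and 1086.

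Single-cell RNA was measured in pre-cDCs, cDC1s and cDC2s sorted from MCA205 LA OVA tumours at day 5 and mixed. Mice were C57BL/6J, aged 6 to 20 weeks, and tumours were pooled within a genotype. The WT pool came from 37 mice (25 males and 12 females) and the sGSN-/- pool, lacking secreted gelsolin, from 31 (15 males and 16 females). The sGSN-/-Clec9a-/- pool, lacking also the dead-cell receptor encoded by Clec9a, came from 27 (10 males and 17 females). There was 1 library per genotype, so differences between genotypes have no test, and the spread over libraries contains genotype differences.

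As background, cDC1s arise from bone marrow precursors that reach tissues as pre-cDCs and mature locally under the transcription factors Irf8 and Batf3. Mature resting cDC1s carry receptors for the uptake of dead cells and for cross-presentation to T cells. On activation they leave this state. The order of the early, resting and activated cells of these tumours was not tested.

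The 6 sums, 1 per library and side, held 6873652, 5784876 and 4818341 UMIs (unique molecular identifiers, 1 per captured RNA molecule) on the early side and 21123082, 13452758 and 13381757 on the resting side. Throughout, 3 values in a row are for the WT, sGSN-/- and sGSN-/-Clec9a-/- libraries in that order, levels are counts per 1000000 UMIs of a sum (CPM), and differences are early minus resting on the log2 scale. Early cells held a median of 13187, 13017 and 10973 UMIs per cell and resting cells 14423.5, 14749 and 12725.5. Early cells made up 21.4%, 25.2% and 22.8% of each library's cDC1s and resting cells 63.7%, 54.7% and 61.1%. The exact 95% Clopper-Pearson intervals of the early share were 19.7 to 23.1, 23.1 to 27.3 and 20.9 to 24.9. Among the early and resting cells alone, the early share was 25.1%, 31.5% and 27.2%. Shared barcode sequences were counted for pairs: WT with sGSN-/-, WT with sGSN-/-Clec9a-/-, and sGSN-/- with sGSN-/-Clec9a-/-. In that order of pairs there were 26, 28 and 27 among all barcodes and 2, 2 and 3 among cDC1s.

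The libraries followed their Clec9a labels. Over both sides together Clec9a had 4706, 3173 and 1 UMIs, which is 168, 165 and 0.0549 CPM. Gsn cannot check the sGSN label, because the transcript of the secreted form is not told apart from the others in these counts.

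Early cells held more RNA of precursor genes, of the S100 and IFITM families and of the single genes Lgmn and Ifi30. They held less RNA of genes that define mature cDC1s, of immediate early genes, of heat shock chaperones and of the chemokines Ccl2 and Ccl7. For the immediate early and heat shock lists, summed levels in the resting clusters 5 and 0 lay near the early cluster 4. Clusters 2, 3 and 6 lay above it. Of 10696 genes tested, 2039 were higher in early cells (19.1%) and 2075 were lower (19.4%), at an adjusted p under 0.05. The counts given below for each list stand beside these shares, and a list near them shows no more calls than all genes tested. Both directions together gave 4114 genes (38.5%), of which 4092 went in the same direction in all 3 libraries. By over 1 on the log2 scale, 420 were higher and 417 lower. The median log2 difference, early minus resting, of all genes tested was -0.01. Without the WT library 1270 genes were higher and 1309 lower of 10615 tested. With cells thinned to 3900 UMIs, 1317 were higher and 1367 lower of 8766 tested. That alternative also left out the 51 early and 105 resting cells with fewer UMIs. Cluster 4 alone gave 1579 higher and 1530 lower of 10405, cluster 1 alone 1892 and 1946 of 10384, and leaving out cluster 0 gave 2164 and 2167 of 10384. The clusters had been called on these same counts, so an adjusted p describes how alike the 3 libraries were and not whether the states exist.

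**Figure D1:**
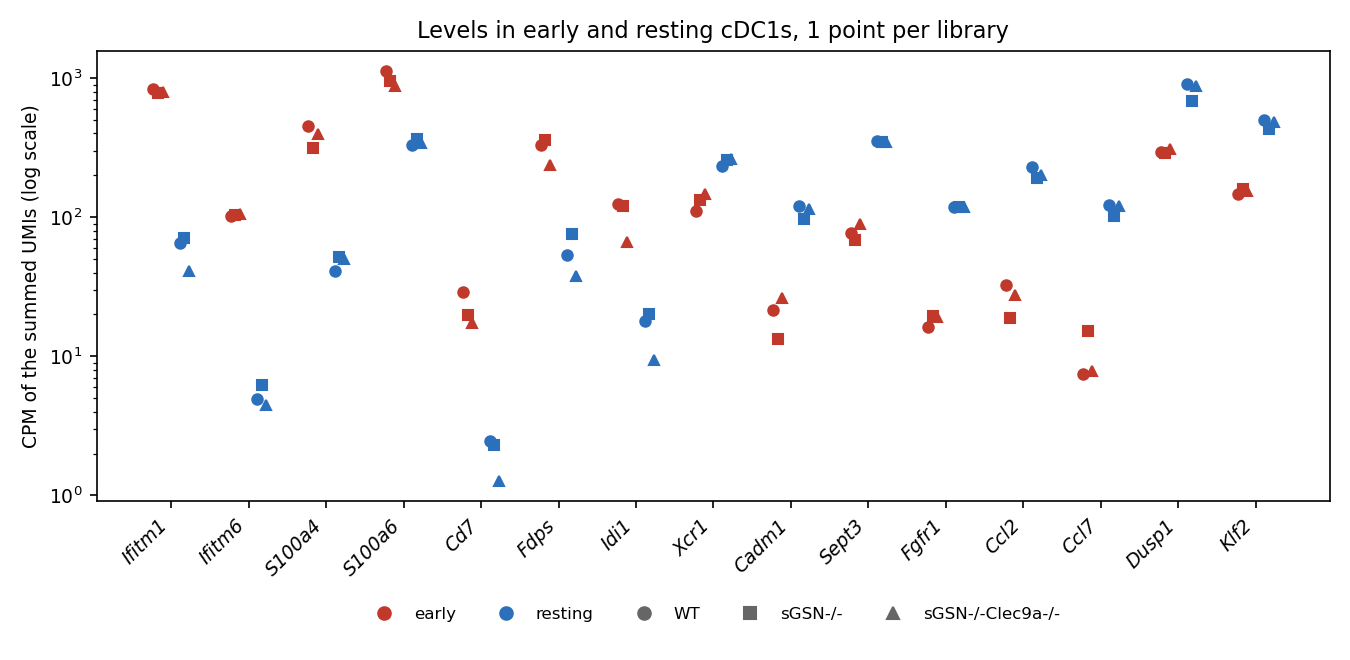
Levels of 15 genes in the early (red) and resting (blue) sums, in CPM on a log scale, with 1 point per library and the shape giving the genotype. For each gene drawn the 3 early points and the 3 resting points did not overlap; Ifitm1 stood between 778 and 841 CPM in early cells and between 40.9 and 71.3 in resting cells.

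Genes of the S100 and IFITM families, small calcium-binding proteins and interferon-inducible membrane proteins, held the 3 largest rises among called genes with a mean of 50 CPM or more over the 6 sums and the same direction in all 3 libraries. Ifitm6 had 101, 103 and 105 CPM in early and 4.97, 6.17 and 4.48 in resting cells (log2 4.32, adjusted p = 1.3e-12). Ifitm1 had 841, 778 and 799 CPM in early and 64.8, 71.3 and 40.9 in resting cells (log2 3.78, adjusted p = 3.2e-10). S100a4 had 451, 317 and 399 CPM in early and 41.1, 52.2 and 49.8 in resting cells (log2 3.04, adjusted p = 1.4e-09). All 3 early libraries lay above all 3 resting libraries for each of these genes, and the genotypes lay close together for Ifitm6. Of 10 members tested, 7 were higher, 1 was lower and 2 were not called, with a median of 1.16. S100a6, at 1121, 949 and 881 CPM in early and 329, 364 and 341 in resting cells, was higher by 1.52. Ifitm3 and Ifitm2 were higher by 1.32 and 0.9997. S100a1 was the member that fell, from 47.8, 41.6 and 41.3 CPM in resting to 28.5, 31.6 and 30.1 in early cells. S100a11, the most abundant member, and S100a13 had log2 differences of 0.00 and -0.00 and were not called, but S100a11 was called lower in cluster 4 alone (-0.25). S100a10 was higher by 0.53, but cluster 1 alone gave 0.01 and was not called. The study chose S100a4, S100a6 and Ifitm1 on these samples as genes of the early state, so the call of all 3 is not independent evidence. By position, Ifitm1, Ifitm2, Ifitm3 and Ifitm6 lie together on chromosome 7, from 140954837 to 141017924 at the outer ends of Ifitm2 and Ifitm6, and S100a4 and S100a6 lie together on chromosome 3 (GRCm38, GENCODE M21).

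Genes known from dendritic cell precursors were mostly higher: of 23 tested, 19 were higher, 2 were lower and 2 were not called, with a median of 1.25. Cd7, a surface protein of pre-cDCs and lymphoid cells, had 29.2, 19.9 and 17.2 CPM in early and 2.46, 2.30 and 1.27 in resting cells (log2 3.44, adjusted p = 5.1e-08). It was high in every early library and low in every resting one, and the sGSN-/-Clec9a-/- library was the lowest of the early sums. Cd34, a marker of blood-forming progenitors, rose from 1.37, 0.892 and 0.822 CPM in resting to 11.8, 7.95 and 8.30 in early cells (log2 3.13). Csf1r, the receptor for the growth factor M-CSF, rose by 2.33 and Ly6c2, a monocyte and precursor surface protein, by 2.52. Plac8 rose by 1.25 and Lgals1 by 0.70. Flt3, the receptor for the main dendritic cell growth factor, was the opposite, at 141, 136 and 132 CPM in early and 182, 166 and 182 in resting cells (log2 -0.37). Clec12a was lower by 0.45 and was not called without the WT library (-0.46) or without the sGSN-/- library (-0.43). Flt3 and Clec12a both lost their calls in cluster 1 alone, at -0.16 and -0.23. Ccr2 and Ccr9 were not called, at -0.09 and 0.61, but Ccr9 was called without cluster 5 (0.78). Kit, another growth factor receptor, was higher by 0.31 and not called without the sGSN-/- library (0.27).

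The same list was counted for each early cluster apart. Cluster 4 alone against the resting clusters gave 17 precursor genes higher, 2 lower and a median of 1.44, and cluster 1 alone gave 13 higher, 0 lower and a median of 0.58. Over the 3 libraries Cd7 averaged 54.2 ± 13.4 CPM in cluster 4 and 3.73 ± 2.11 in cluster 1 (mean ± SD, n = 3), beside 2.59 ± 1.30 in the resting cluster 2. S100a4 averaged 730.3 ± 128 in cluster 4 and 193 ± 25.9 in cluster 1, so cluster 1 held less S100a4 than cluster 4 while both exceeded 96.4 ± 18.8 in cluster 5, the highest resting cluster. Other genes were as high or higher in cluster 1: Ifitm1 averaged 785 ± 80.2 and 817 ± 5.09, and Siglech, a lectin of plasmacytoid cells and precursors, 4.87 ± 0.353 and 17.7 ± 3.44. Siglech, higher by 2.32, was not called in cluster 4 alone (0.85). Plet1 averaged 56.9 ± 18.4 and 212 ± 76.95 and was not called in cluster 4 alone (0.29). Cx3cr1 and Spn, higher by 2.03 and 1.35 with both clusters together, lost their calls in cluster 1 alone at 0.21 and -0.02. With 1 library left out in turn, Cx3cr1 lay between 1.58 and 2.97. The difference between the 2 early clusters was not tested.

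**Figure D2:**
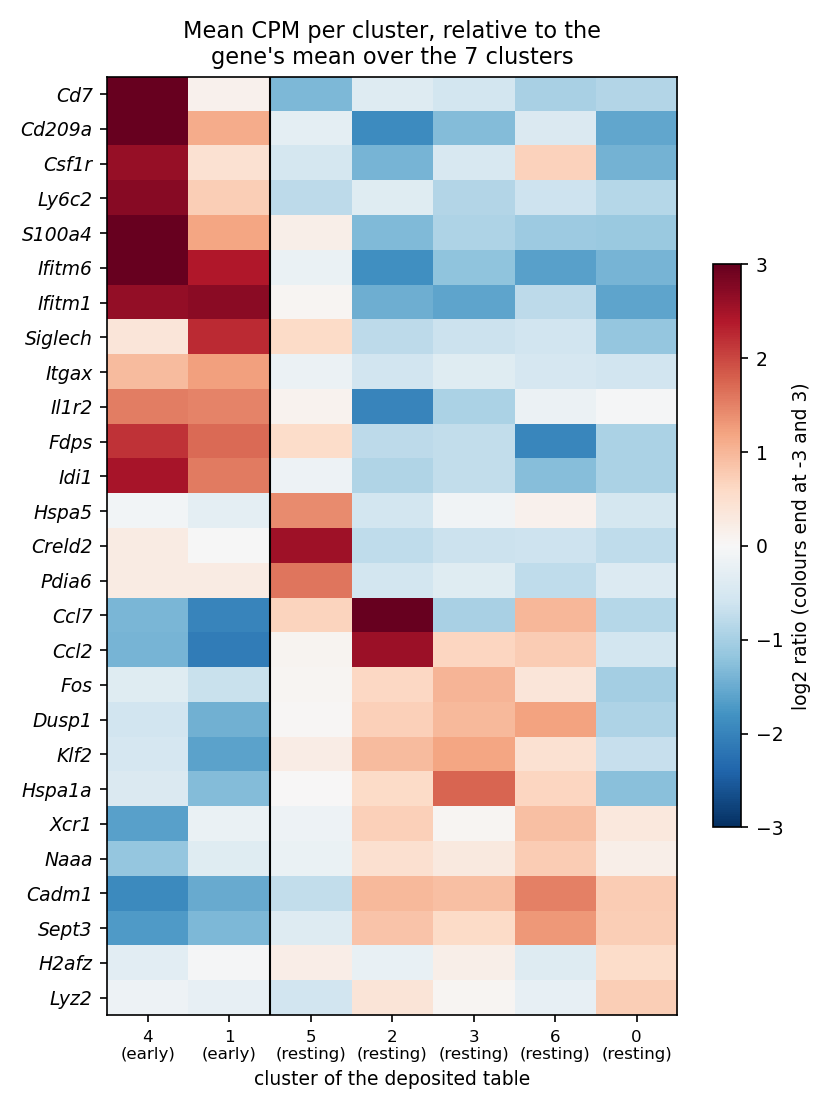
Mean CPM over the 3 libraries in each early and resting cluster, drawn as the log2 ratio to the gene's mean over the 7 clusters, with colours that end at -3 and 3. Cd7 and Cd209a were higher in cluster 4 than in cluster 1, Hspa5 and Creld2 were high in cluster 5, and Ccl2 and Ccl7 were high in cluster 2.

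Genes that define cDC1s were mostly lower in early cells. Of 31 tested, 1 was higher, 24 were lower and 6 were not called, with a median of -0.61. Cadm1, an adhesion molecule of cDC1s, had 21.5, 13.3 and 26.2 CPM in early and 120.0, 96.7 and 114 in resting cells (log2 -2.45, adjusted p = 6.2e-08). Xcr1, the receptor through which cDC1s follow the chemokine Xcl1, had 110.4, 132 and 147 CPM in early and 234, 259 and 260.4 in resting cells (log2 -0.95, adjusted p = 5.2e-06). Sept3, a septin, had 77.5, 68.8 and 89.5 CPM in early and 353, 345 and 348 in resting cells (log2 -2.15, adjusted p = 1.5e-09). For all 3 genes the highest early library lay below the lowest resting one. Naaa, a lysosomal amidase and the most abundant member, fell by 0.89, Plpp1 fell by 1.91 and the scavenger receptor gene Cd36 fell by 1.32. Wdfy4, needed for cross-presentation, was lower by 0.58 and Tlr3, the sensor of double-stranded RNA, fell by 0.57. The exception was Tlr12, a sensor of parasite profilin, at 12.9, 13.1 and 13.5 CPM in early and 2.46, 3.87 and 2.24 in resting cells (log2 2.23). Its partner Tlr11 went the other way, at 7.86, 7.09 and 9.34 CPM in early and 25.7, 21.4 and 24.6 in resting cells (log2 -1.57). With cluster 4 alone on the early side the median of the list was -1.10, and with cluster 1 alone -0.46. Itgae, Ppt1 and Snx22, called lower with both clusters, were not called in cluster 1 alone (-0.10, -0.14 and 0.01). Cd207, at 0, 0 and 1.04 CPM in early and 1.23, 4.61 and 0.897 in resting cells, was called lower by 2.84, but the sGSN-/-Clec9a-/- library went the other way. It was not called with DESeq2 (-2.68), without the sGSN-/- library (-1.31) or in cluster 1 alone (-2.47). Without the sGSN-/-Clec9a-/- library it was at -8.01, but both early sums were then at 0, so this value is no measured difference. By cluster, Xcr1 averaged 62.1 ± 16.5 CPM in cluster 4, 168 ± 21.3 in cluster 1 and 174 ± 18.9 in cluster 5, and 314 ± 23.2 in cluster 2 (mean ± SD, n = 3).

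Clec9a had 102 and 114 CPM in the WT and sGSN-/- early sums and 189 and 187 in their resting sums. In the sGSN-/-Clec9a-/- library it was at 0 on the early side and 0.0747 CPM on the resting side. The 3 libraries together gave -0.75 with an adjusted p of 0.567 and no call, whereas the fit without the sGSN-/-Clec9a-/- library gave -0.79 and a call, as did those with the library as a block (-0.79) and with no filter (-0.79).

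Among the factors that establish the lineage, Irf8 fell and Batf3 was not called. Batf3 had 245, 264 and 251 CPM in early and 270.0, 269.8 and 266 in resting cells (log2 -0.08, adjusted p = 0.324). Irf8 had 932, 1044 and 961 CPM in early and 1329, 1275 and 1302 in resting cells and was lower by 0.41 (adjusted p = 1.9e-04). Id2, Nfil3 and Spi1 had log2 differences of -0.04, 0.02 and 0.03, none called, although Id2 was called lower in cluster 4 alone (-0.39) and Nfil3 higher without cluster 0 (0.35). Of 31 transcription factors of dendritic cells tested, 4 were higher, 12 were lower and 15 were not called, with a median of -0.04; cluster 4 alone gave 9 higher and 9 lower, and cluster 1 alone 3 and 13. The 4 that were higher were Zeb2 (1.98), Runx2 (1.70), Runx3 (0.70) and Tcf4 (0.61), of which Tcf4 is the lead factor of plasmacytoid cells and Zeb2 a repressor of the cDC1 fate. Zeb2 averaged 47.4 ± 7.98 CPM in cluster 4 and 6.51 ± 1.41 in cluster 1, and it was not called in cluster 1 alone (0.34). Runx3 averaged 156 ± 11.1 and 162 ± 19.3 in the same clusters. Among those lower, Mycl fell by 1.0023, Cebpa fell by 0.98, the corepressor gene Cbfa2t3 fell by 0.92 and Zbtb46, a factor of all conventional dendritic cells, fell by 0.88. Cebpa was not called in cluster 4 alone (-0.44). Bcl11a, not called with both clusters, was higher in cluster 4 alone (0.43) and lower in cluster 1 alone (-0.52). Cebpb had 109, 71.2 and 20.96 CPM in early and 66.4, 59.8 and 18.9 in resting cells, with the sGSN-/-Clec9a-/- library lowest on both sides, and was called only in some fits: without that library it was higher by 0.53, with the library as a block by 0.47 and with no filter by 0.47.

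Genes of MHC class II presentation went both ways. The chain H2-Ab1 had 9474, 9936 and 10202 CPM in early and 10681, 10859 and 10862 in resting cells (log2 -0.12, not called), and Cd74, the invariant chain, had 18661, 18844 and 18574 in early and 21018, 20605 and 20316 in resting cells (log2 -0.14, not called). Both were lower and called in cluster 4 alone, at -0.43 and -0.38, with the library as a block (-0.13 and -0.14), with no TMM factors (-0.13 and -0.14) and with no filter (-0.16 and -0.17), and Cd74 also without cluster 6 (-0.19). H2-Eb2, a chain of low abundance, had 2.04 to 3.32 CPM in early and 4.61 to 5.605 in resting cells. It was lower by 0.89 (adjusted p = 0.00795), the largest fall of the list, and was not called without the WT library (-0.67) or with cells thinned to 3900 UMIs (-1.06). H2-Eb1 was lower by 0.21, was not called without the WT library (-0.19), the sGSN-/- library (-0.22) or cluster 0 (-0.11), and in cluster 1 alone was at 0.01. The members that were higher were Lgmn, Ifi30 and Ctss. Lgmn, an asparaginyl endopeptidase, had 53.5, 55.7 and 56.2 CPM in early and 10.1, 15.02 and 9.57 in resting cells (log2 2.28, adjusted p = 1.7e-08). Ifi30, the lysosomal thiol reductase, had 951, 983 and 929 CPM in early and 458, 523 and 427 in resting cells (log2 1.03, adjusted p = 5.7e-08), and the protease gene Ctss was higher by 0.57. Each of these 3 had its early libraries above its resting ones. H2-Ob, an inhibitor of peptide loading, was lower by 0.71, March1, which removes class II from the surface, fell by 0.56, and Ciita, the master activator of class II genes, fell by 0.33. Of the 15 members tested, 3 were higher, 5 lower and 7 not called, with a median of -0.10. Of all genes tested 19.1% were higher and 19.4% lower, so the higher members were near the share of all genes. Without the WT library 3 were higher and 3 lower, in cluster 4 alone 3 and 9, in cluster 1 alone 6 and 4, and with the library as a block 4 and 9.

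Of 35 lysosomal genes, 13 were higher, 10 lower and 12 not called, with a median of 0.13. The summed level of the list was nevertheless lower in early cells, at 28028, 30095 and 28395 CPM against 31890, 32874 and 31785 in resting cells. The lower genes numbered 5 without the WT library and 6 without the sGSN-/- library, beside 10 and 12 higher. Beside Lgmn and Ctss, Ctsh rose from 198, 222 and 198 to 365, 364 and 396 CPM (log2 0.87). Psap, the saposin precursor, fell from 3066, 3092 and 3169 to 2031, 2164 and 2166 CPM (-0.55) and the lipase gene Lipa fell by 0.72. Cst3, the most abundant member, was at -0.13 and not called, but was called lower with the library as a block (-0.13), with no TMM factors (-0.14), with no filter (-0.16), without cluster 6 (-0.20) and in cluster 4 alone (-0.45).

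Of 20 MHC class I genes, 3 were higher, 8 lower and 9 not called, with a median of -0.08, beside 19.1% higher and 19.4% lower of all genes tested. Without the WT library 0 were higher and 7 lower, and in cluster 4 alone 1 was higher and 8 lower. B2m had 812, 809.9 and 888 CPM in early and 1115, 1092 and 1118 in resting cells (log2 -0.40, adjusted p = 4.0e-04). The peptide transporter gene Tap1 was lower by 0.46 and H2-D1, the most abundant member, fell by 0.29. Psmb9, an immunoproteasome subunit, was lower by 0.33 and Psme2, a proteasome activator, was higher by 0.24. Psmb9 lost its call in cluster 1 alone (-0.17) and Psme2 without the WT library (0.20) and in cluster 4 alone (0.07).

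Immediate early genes, which respond to signals within minutes, were lower in early cells for 25 of 32 members, with 1 higher, 6 not called and a median of -0.49. Dusp1, a phosphatase of MAP kinases, had 293, 289 and 309 CPM in early and 901, 679.9 and 874 in resting cells (log2 -1.46, adjusted p = 9.7e-08). Klf2 had 148, 159 and 154 CPM in early and 499.6, 434 and 480.4 in resting cells (log2 -1.62, adjusted p = 3.3e-09), and Egr2 fell by 1.72. Fos, the most abundant member, was lower by 0.83 and Klf6 fell by 1.28. The WT resting sum was the highest for each of these genes, and each early library lay below all resting ones. Dusp2 was the one member that rose, from 33.7, 34.9 and 31.98 to 83.8, 73.3 and 74.3 CPM (1.21). The resting clusters were far apart in these genes: Fos averaged 5288 ± 379 CPM in cluster 3 and 1274 ± 91.7 in cluster 0 (mean ± SD, n = 3), the latter below 2010.2 ± 115 in cluster 4. The whole list summed to a mean of 31094 CPM in cluster 3, 28468 in cluster 6 and 21023 in cluster 2. It was 17659 in cluster 5 and 16280 in cluster 0, beside 16243 in cluster 4 and 13954 in cluster 1. Jun was lower by 0.44 but at 0.06 in cluster 4 alone. The study named Fos, Jun and Dusp1 for resting clusters of these samples, so their calls are not independent evidence. Of the 9 genes it named for resting clusters, 7 were lower and 2 not called, and this count is not independent evidence either. Without cluster 5, 2 of the 9 were higher and 5 lower, and without cluster 0, 1 was higher and 5 lower.

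The promoters of these genes were searched on both strands for the cAMP response element TGACGTCA, in 300 bases around each gene's start from RefSeq (GRCm38.p6). It was found in 3 of 27 immediate early genes with a promoter in the table (11.1%), Btg2, Dusp1 and Ppp1r15a, and in 549 of 27025 genes (2.03%). A match is a description of the letters and not a site of binding. The promoters of Dusp1 and Ppp1r15a are shown because both genes were lower in early cells (log2 -1.46 and -0.58) and hold the element, which is in capitals. Dusp1 is at chr17:26508423-26508722 and Ppp1r15a at chr7:45526219-45526518, both on the minus strand.
Dusp1: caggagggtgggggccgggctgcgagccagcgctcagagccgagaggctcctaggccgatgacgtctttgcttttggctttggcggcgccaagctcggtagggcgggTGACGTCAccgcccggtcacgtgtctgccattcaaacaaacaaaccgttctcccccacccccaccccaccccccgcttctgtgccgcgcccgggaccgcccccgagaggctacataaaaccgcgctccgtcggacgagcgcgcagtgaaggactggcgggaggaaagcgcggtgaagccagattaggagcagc
Ppp1r15a: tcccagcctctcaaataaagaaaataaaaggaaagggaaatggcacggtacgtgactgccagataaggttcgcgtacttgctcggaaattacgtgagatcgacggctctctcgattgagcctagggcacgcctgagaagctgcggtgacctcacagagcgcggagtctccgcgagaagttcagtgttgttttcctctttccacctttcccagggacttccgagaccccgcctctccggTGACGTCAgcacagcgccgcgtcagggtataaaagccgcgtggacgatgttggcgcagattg
Btg2 also holds the element and had a log2 difference of -0.06.

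Heat shock chaperones were lower for 9 of 15 members, with 0 higher, 6 not called and a median of -0.44. Hspa1a had 494, 331 and 225 CPM in early and 1446, 807 and 641 in resting cells (log2 -1.45, adjusted p = 4.8e-04). Hsph1, a nucleotide exchange factor of Hsp70, fell by 1.30 and Dnajb1, its co-chaperone, fell by 0.98. The WT library was the highest and the sGSN-/-Clec9a-/- library the lowest on both sides for Hspa1a. Hspa1b, a near-identical copy of Hspa1a, was lower by 1.64, and counts between the copies are uncertain. Cluster 3 held the most Hspa1a, 2193 ± 704 CPM, and clusters 1 and 0 the least, 269 ± 137 and 278 ± 199. The whole list summed to a mean of 14766 CPM in cluster 3, 10416 in cluster 6 and 9430 in cluster 2. It was 7693 in cluster 0 and 7554 in cluster 5, beside 7170 in cluster 4 and 6449 in cluster 1.

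Genes of the unfolded protein response changed their counts with cluster 5. The study described cluster 5 by genes of this response, among them Creld2, Hspa5 and Pdia6. The change on leaving it out is thus not independent evidence. With all resting clusters, 1 of 21 genes tested was higher, 7 were lower and 13 were not called, with a median of -0.16. Without cluster 5, 12 were higher, 1 was lower and the median was 0.34, beside 2377 higher and 2230 lower of 10504 genes in that fit. Leaving out the sGSN-/- library gave 2 higher and 3 lower, and leaving out cluster 0 gave 1 higher and 13 lower. With the library as a block 3 were higher and 10 lower. Hspa5, the main chaperone of the endoplasmic reticulum, averaged 2666 ± 259 CPM in cluster 5, 945 ± 87.1 in cluster 4, 813 ± 43.1 in cluster 1 and 685 ± 82.3 in cluster 2. Creld2 averaged 293 ± 32.02 CPM in cluster 5 and 59.7 ± 5.85 in cluster 4, against 29.6 ± 8.04 in cluster 2. Hspa5 was lower by 0.31 with cluster 5 and at 0.13, not called, without it, and Creld2 was lower by 0.39 with it and higher by 0.81 without it. Pdia6 was not called with cluster 5 (0.16) and was higher by 0.73 without it; it was also called higher with the library as a block (0.16), without the sGSN-/- library (0.26) and in cluster 1 alone (0.21). Creld2 also lost its call without the sGSN-/- library (-0.26) and in cluster 4 alone (-0.28). Dnajb9 was lower by 0.76 and kept its call in each alternative. The endoplasmic reticulum stress element (CCAAT, then 9 bases, then CCACG) was in 6 of 19 promoters of the list (31.6%), those of Calr, Creld2, Dnajc3, Hsp90b1, Hspa5 and Pdia6, and in 37 of 27025 genes (0.137%). These genes did not move together with all resting clusters, so no promoter of them is shown.

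Enzymes of sterol synthesis made up 4 of the 12 largest rises named by size. This list of 20 was drawn up after values were seen, so its counts are a description: 19 were higher, 0 lower and 1 not called, with a median of 1.66. Fdps, which makes farnesyl pyrophosphate, had 330.1, 357 and 236 CPM in early and 53.7, 76.3 and 37.96 in resting cells (log2 2.47, adjusted p = 1.5e-07). Idi1, which isomerises isopentenyl pyrophosphate, had 124, 119.8 and 66.4 CPM in early and 17.9, 20.1 and 9.42 in resting cells (log2 2.72, adjusted p = 3.1e-07). Hmgcs1, at the entry of the pathway, had 93.8, 94.04 and 59.4 CPM in early and 20.5, 22.4 and 15.3 in resting cells (log2 2.10, adjusted p = 7.6e-08). The sGSN-/-Clec9a-/- library was the lowest on both sides for each of these 3 genes, and each early library lay above all resting ones. Cyp51 rose by 1.98 and Sqle by 2.34. Ebp and Pmvk rose least, by 0.39 and 0.35, and Tm7sf2 was not called (0.56). Summed over the list the level was 1276, 1311 and 920.4 CPM in early and 395, 443 and 326 in resting cells. Cluster 4 held more than cluster 1 of Fdps, 373 ± 107 against 272 ± 49.3 CPM, and of Idi1, 148 ± 52.4 against 78.5 ± 23.2, and the activated clusters 7, 8, 9 and 10 together held 134 ± 19.7 and 55.8 ± 17.4, with no test between them. The sterol regulatory element TCACNCCAC, also searched after values were seen, was in 1 of 15 promoters of the list (6.67%), that of Hmgcs1, and in 388 of 27025 genes (1.44%).

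**Figure D3:**
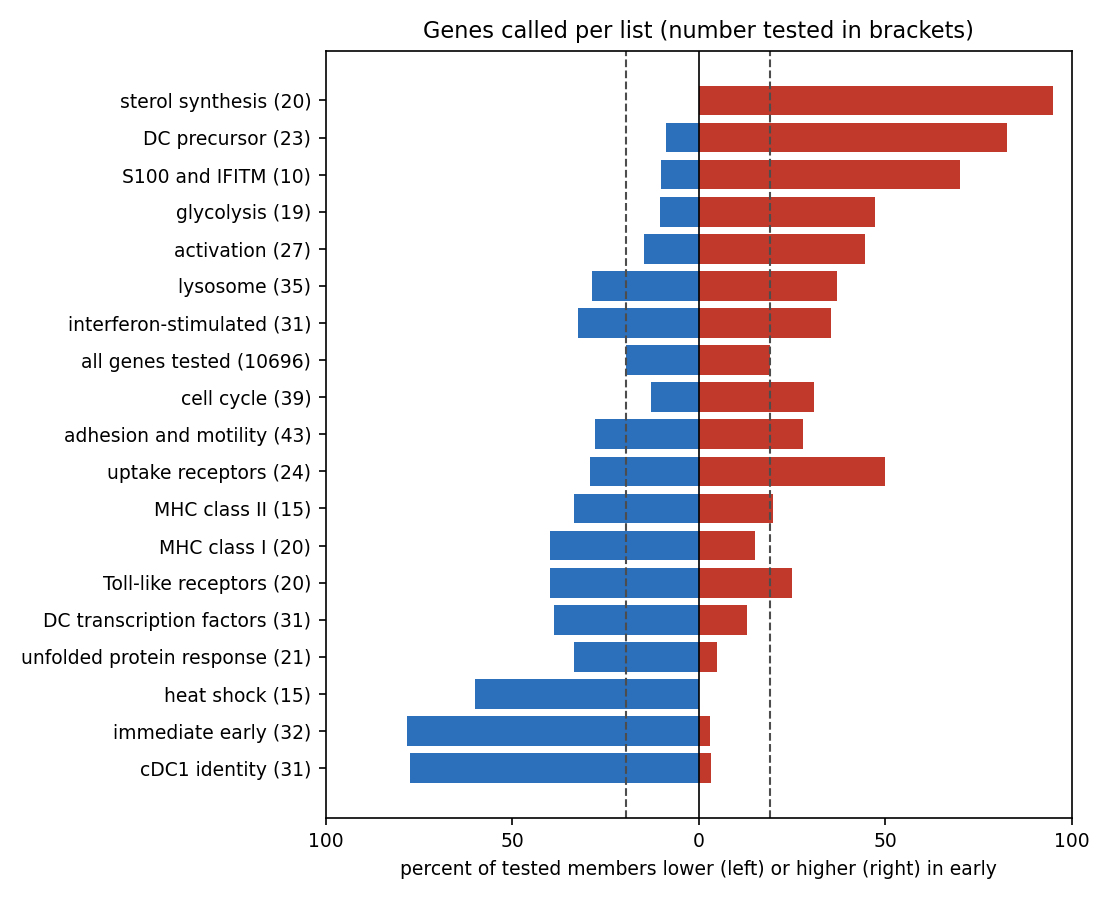
Percent of the tested members of each list that were higher (red, right) or lower (blue, left) in early cells, with the number tested in brackets and dashed lines at the percent of all genes tested (19.1 and 19.4). The sterol synthesis list, with 19 of 20 higher, was chosen after values were seen; 19 of 23 precursor genes were higher and 24 of 31 cDC1 identity genes lower.

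Cell cycle genes were mixed. The study had excluded proliferating cells before it called these clusters. Of 39 tested, 12 were higher, 5 lower and 22 not called, with a median of 0.19. The summed level of the list was nevertheless lower in early cells, at 3923, 4007 and 3850 CPM against 4150, 4392.5 and 3909 in resting cells. The counts were 8 higher and 4 lower without the WT library and 15 and 3 without cluster 5. Ccnd2, a cyclin of the first growth phase, had 89.04, 108 and 80.9 CPM in early and 25.6, 38.5 and 25.5 in resting cells (log2 1.65, adjusted p = 4.1e-07). Cdk4, its kinase, rose by 0.77 and Cdkn1a, an inhibitor of cyclin-dependent kinases, by 1.03. All early libraries were above the resting ones for the 3 genes. H2afz, the most abundant member and one the study named for a resting cluster, was lower by 0.31 and at -0.05 with no call when cluster 0 was left out, nor was it called in cluster 1 alone (-0.16). Pcna was lower by 0.35 and not called in cluster 4 alone (-0.19).

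Of 19 glycolysis genes tested, 9 were higher, 2 lower and 8 not called, with a median of 0.30. Cluster 4 alone gave 6 higher and 1 lower. The median was 0.18 without the WT library and with thinned cells, and 0.19 with the cells of high doublet score left out. It was 0.34 without the sGSN-/- library. Eno1, enolase, had 102, 97.7 and 102 CPM in early and 65.00, 68.2 and 66.9 in resting cells (log2 0.60, adjusted p = 9.8e-06). Gapdh was higher by 0.37 and Aldoa by 0.30, the latter not called without the sGSN-/- library (0.26) and in cluster 4 alone (0.07). Pfkp, the platelet form of phosphofructokinase, fell from 378, 369 and 408 CPM to 162, 164 and 163 (-1.24). Ldha, the most abundant member, was not called (0.11), but was called higher with the library as a block (0.11), without cluster 0 (0.19) and in cluster 1 alone (0.25).

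Of 31 interferon-stimulated genes, 11 were higher, 10 lower and 10 not called, with a median of 0.10, and these counts changed with the cells taken. The summed level of the list was lower in early cells, at 1482, 1528 and 1538 CPM against 1798, 1775 and 1776 in resting cells. Cluster 4 alone gave 15 of 31 higher, 5 lower and a median of 0.50, and cluster 1 alone 0 of 26 higher, 16 lower and -0.54. With cells thinned to 3900 UMIs 2 of 27 were higher and 12 lower (median -0.27), and with the cells of high doublet score left out 6 of 27 were higher and 12 lower (-0.19). Phf11b had 102, 116 and 112 CPM in early and 208, 201 and 211 in resting cells (log2 -0.90, adjusted p = 4.0e-07). Slfn5 was lower by 0.69 and Zbp1, a nucleic acid sensor, fell by 0.66. Isg15 was higher by 0.35, but it was at 0.03 with cells thinned to 3900 UMIs and at -0.01 in cluster 1 alone, without a call in either. Bst2, the most abundant member, was higher by 0.21 and not called without the WT library (0.19), the sGSN-/-Clec9a-/- library (0.19) or cluster 6 (0.15), nor in cluster 1 alone (0.11).

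Genes of activation were higher for 12 of 27 members, lower for 4 and not called for 11, with a median of 0.59. Cluster 4 alone gave 13 of 26 higher and 3 lower, whereas cluster 1 alone gave 4 higher, 6 lower and a median of 0.08. With the cells of high doublet score left out 9 were higher and 6 lower, and with thinned cells 7 of 22 were higher and 4 lower. Cxcl10, a ligand of the receptor encoded by Cxcr3, had 47.1, 37.7 and 25.1 CPM in early and 9.80, 4.09 and 4.11 in resting cells (log2 2.55, adjusted p = 3.9e-06). Cxcl9, another ligand of that receptor, had 60.8, 51.5 and 55.4 CPM in early and 22.1, 16.1 and 12.7 in resting cells (log2 1.70, adjusted p = 4.2e-07). The WT library was the highest on both sides for both genes, and early and resting libraries did not overlap. The 4 activated clusters together held far more, 809 ± 91.2 CPM of Cxcl9 against 111 ± 33.8 in cluster 4 and 23.7 ± 14.5 in cluster 1, where Cxcl9 was not called alone (0.52). Nfkbia, the inhibitor of NF-kB, was higher by 0.67 and not called in cluster 1 alone (0.21), and Cd83, the most abundant member, was not called (0.03). Icam1 was lower by 0.56 and at 0.03 in cluster 4 alone.

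Among chemokine receptors 6 of 12 were higher, 2 lower and 4 not called, with a median of 0.91. The summed level of the list was nevertheless lower in early cells, at 550, 568 and 612 CPM against 695, 713 and 712 in resting cells. In cluster 1 alone 3 of 11 were higher and 2 lower, with a median of 0.21. With thinned cells 4 of 9 were higher and 2 lower, with a median of 0.20. Leaving out cluster 0 gave 5 of 11 higher, 2 lower and a median of 0.57. Cxcr3 had 24.4, 22.99 and 34.5 CPM in early and 84.5, 82.5 and 92.2 in resting cells (log2 -1.68, adjusted p = 2.1e-07). Its early libraries all lay below its resting ones. Ccr2, the most abundant receptor of the list, had 286, 281 and 288 CPM in early and 312, 304 and 298 in resting cells. Ccl2 and Ccl7, ligands of the receptor encoded by Ccr2 and neighbours on chromosome 11, had the largest falls among called genes with a mean of 50 CPM or more. Ccl7 had 7.42, 15.2 and 7.89 CPM in early and 123, 102 and 121 in resting cells (log2 -3.50, adjusted p = 5.8e-09), and Ccl2 had 32.7, 18.8 and 27.8 CPM in early and 229, 193 and 202 in resting cells (log2 -2.96, adjusted p = 3.3e-09). Both were low in every early library. On the resting side cluster 2 had the highest levels of both, 381 ± 20.05 CPM of Ccl7 and 545 ± 56.9 of Ccl2, against 17.1 ± 6.62 and 144 ± 28.5 in cluster 3.

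Of 43 adhesion and motility genes, 12 were higher, 12 lower and 19 not called, with a median of 0.00. Cluster 4 alone gave 20 of 43 higher and 10 lower, and cluster 1 alone 11 of 42 higher and 17 lower. Leaving out cluster 0 gave 15 of 42 higher and 8 lower. Itgax, the integrin chain CD11c, had 78.1, 79.9 and 90.5 CPM in early and 27.2, 31.4 and 23.99 in resting cells (log2 1.59, adjusted p = 2.5e-08). Itgal, the chain of the integrin LFA-1, went the other way and was lower by 0.97, and the tetraspanin gene Cd81 was lower by 1.83. Tmsb10, an actin-binding peptide, rose from 4616, 4003 and 3596 to 7219.6, 5549.5 and 5313 CPM (0.57). Tmsb4x, the most abundant member, was at 0.20 and not called (adjusted p = 0.0537). It was called higher with DESeq2 (0.21), with no TMM factors (0.20), with no filter (0.17), with the library as a block (0.21) and without the sGSN-/-Clec9a-/- library (0.19). The same held with the cells of high doublet score left out (0.23), without cluster 5 (0.23), without cluster 0 (0.30) and in cluster 1 alone (0.45), but it was called lower in cluster 4 alone (-0.27).

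Uptake receptors were higher for 12 of 24 members, lower for 7 and not called for 5, with a median of 0.11. The summed level of the list was nevertheless lower in early cells, at 1570, 1545 and 1563 CPM against 1844, 1791 and 1714.5 in resting cells. With thinned cells 6 of 18 were higher and 7 lower (median -0.27), and in cluster 1 alone 6 of 23 were higher and 7 lower. Cd209a, a lectin known from cDC2s and monocyte-derived cells, had 92.5, 66.7 and 78.04 CPM in early and 5.25, 3.35 and 3.44 in resting cells (log2 4.26, adjusted p = 3.2e-10). Fcgr2b, the inhibitory Fc receptor, was lower by 0.83, and Timd4, a receptor for phosphatidylserine, fell by 0.98, with no call for Timd4 when cluster 0 was left out (-0.39). Fcer1g was higher by 0.20, lost its call without the WT library (0.21), the sGSN-/- library (0.21) or the sGSN-/-Clec9a-/- library (0.18), without cluster 6 (0.14), without cluster 5 (0.13) or the cells of high doublet score (0.15), and was lower in cluster 1 alone (-0.35). Of 20 Toll-like receptor and adaptor genes, 5 were higher, 8 lower and 7 not called, with a median of -0.11. Of all genes tested 19.1% were higher and 19.4% lower. Leaving out the WT or the sGSN-/- library gave 3 higher and 6 lower, and thinned cells 1 and 5 of 16. Myd88, the adaptor shared by most of these receptors, had 80.2, 75.5 and 75.8 CPM in early and 131, 126 and 123 in resting cells (log2 -0.71, adjusted p = 1.1e-06).

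Several of the largest differences belonged to no list. Klrd1, which encodes the lectin-like receptor CD94, had 153, 185 and 169 CPM in early and 34.9, 49.1 and 30.6 in resting cells (log2 2.16, adjusted p = 2.6e-08). Il1r2, the decoy receptor for interleukin 1, had 145, 159.9 and 186 CPM in early and 38.1, 47.4 and 38.9 in resting cells (log2 1.99, adjusted p = 1.2e-08). Neurl3 and Smim3 were higher by 1.78 and 1.79. In each of these 4 genes clusters 4 and 1 were both above every resting cluster, with cluster 5 the highest resting cluster for Klrd1 (69.03 ± 16.4 CPM) and for Il1r2 (62.03 ± 8.22). In the other direction, Fgfr1, a receptor for fibroblast growth factors, had 16.1, 19.4 and 19.3 CPM in early and 118, 118 and 119 in resting cells (log2 -2.70, adjusted p = 2.1e-10). Cd180, a Toll-like receptor homologue, fell by 1.69 and Il18, a cytokine of the interleukin 1 family, fell by 1.58. The 3 resting libraries were nearly equal for Fgfr1, and all 3 genes had early libraries below resting ones.

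Ribosomal protein genes, a list made after values were seen, were higher for 23 of 80 members, with 0 lower and a median of 0.13. With the library as a block 65 were higher and 2 lower, without the WT library 7 were higher and without the sGSN-/- library 8. Leaving out cluster 6 gave 11 higher and a median of 0.07, and leaving out cluster 0 gave 44 higher and 0.21. The list summed to a mean of 182280 CPM in the resting cluster 6. It was 237280 in cluster 5 and 248040 in cluster 0, beside 256410 in cluster 4 and 253280 in cluster 1. Genes of the mitochondrial genome were higher for 1 of 13, with 0 lower and a median of 0.10, and with the block for 6, with 1 lower. The median mitochondrial share of UMIs per cell was 1.61%, 1.66% and 2.004% in early and 1.55%, 1.65% and 1.92% in resting cells.

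Markers of other cells the sort could hold were summed on each side. The 10 cDC2 markers summed to 643, 593 and 555 CPM in early and 192, 208 and 189 in resting cells, with Ms4a6c the most abundant and Clec4a4 at 0, and 8 of 9 tested were higher. The mean sum was 1034 CPM in cluster 4 and 347 in cluster 1, beside 261 in cluster 5, the highest resting cluster. Of early cells, 69 (5.18%) were among the 6% of barcodes with the highest doublet scores of their library, against 10 resting cells (0.286%). By cluster they were 51 of 512 cells in cluster 4 (9.96%) and 18 of 820 in cluster 1 (2.20%). With those cells left out the cDC2 sum was 615, 581 and 497 CPM in early and 191, 207 and 188 in resting cells, and 2082 genes were higher and 2095 lower. The part of cDC2 RNA in the other differences was not tested.

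Of the 8 pre-cDC markers tested, 7 were higher and 1 lower, and the list summed to 315, 307 and 265 CPM in early and 231, 217 and 227 in resting cells, with Flt3 the most abundant and none at 0. The highest summed level was that of the resting cluster 6, 468 CPM; clusters 4 and 1 had 402 and 235 and the resting cluster 2 had 223. The 10 cDC1 markers summed to 2844, 3034 and 2941 CPM in early and 4594, 4554 and 4597 in resting cells, with 8 of 10 lower, Naaa the most abundant and none at 0 in all 6 sums. Plasmacytoid markers summed to 382, 380.1 and 379 CPM in early and 299.6, 324 and 297 in resting cells, mostly Bst2, and 4 of 6 tested were higher and 1 lower. Monocyte and macrophage markers summed to less in early cells, 781, 708 and 831 CPM against 1038, 908 and 983, mostly Lyz2, although 7 of 12 tested were higher and 2 lower. With the cells of high doublet score left out 4 were higher and 3 lower, without the WT library 4 and 1, and in cluster 1 alone 3 and 3. Lyz2 itself was lower by 0.50 and was not called when cluster 0 was left out (-0.19). The study named Lyz2 for cluster 0, so neither value is independent evidence. NK markers summed to 179, 211 and 189 CPM in early and 177, 208 and 169 in resting cells, mostly Klrk1, and 1 of 7 tested was higher. T cell markers summed to 3.78, 9.85 and 4.77 against 4.45, 9.66 and 5.01 CPM, with Trbc1 the most abundant and 0 of 2 called. B cell markers summed to 4.36, 2.59 and 2.08 against 1.94, 1.12 and 0.971 CPM, with Cd79b the most abundant and 1 of 1 tested higher. Stromal markers summed to 0.727, 2.42 and 1.04 against 3.17, 3.72 and 2.32 CPM, with Thy1 the most abundant and 0 of 1 called. Neutrophil markers stayed under 1 CPM in every sum, with Csf3r the most abundant over the 6 and Camp, Mmp9, Retnlg and S100a9 at 0, and none was tested. Platelet and red cell markers summed to 4.80, 0.519 and 1.45 against 11.6, 0.669 and 0.673 CPM, with Hbb-bs the most abundant and Ppbp at 0, and none was tested. The part of these cells in the differences was not tested.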

How the data were processed

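Raw UMI counts per gene and cell barcode were deposited as made by the authors with Cell Ranger 6.0.1, and the deposited cDC1 table gives each cell's library, UMI count, gene count, UMAP coordinates and cluster from Seurat 4.0.0 at resolution 0.8. The paper's methods name an earlier Seurat version. The 2 UMAP columns were not used. UMI counts of the table equalled the matrix sums in 4559 cells and differed by at most 34 UMIs in the other 1247. Counts were summed per library and side. Genes were tested with edgeR 4.0.16 (TMM factors, filterByExpr, quasi-likelihood test), with p-values adjusted by Benjamini-Hochberg over all 10696 genes and called under 0.05; of 32285 genes, 17629 had a count. A library's early and resting sums share 1 pool of mice and are paired by it; the deviations of its sums from the group means correlated at 0.209, 0.149 and 0.236, and the library as a replicate block was an alternative. In a simulation, 8.67% of the calls of the fit without the block were unchanged genes, more than its threshold allows, and 4.48% with the block. The simulation changed 100 genes by 0.5 and 100 by 1 on the log2 scale, of 10696. Its sums were drawn with no library effect, so it cannot judge the block on paired sums. With so few changed genes, its shares do not carry over to these data. Some calls near the threshold may not hold. The other alternatives were DESeq2 1.42.0, no TMM factors, no filter, each library left out, thinning to 3900 UMIs with shallower cells left out, doublet removal (Scrublet in Scanpy 1.11.5), and changed clusters. The members and lists were chosen with earlier results of these data known, and the sterol, ribosomal and mitochondrial lists after values were seen.

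Genes were named if the study names them for these states; if among the 12 largest rises or falls at a mean of 50 CPM or more, called, and in the same direction in all 3 libraries; if among up to 4 called members per list and direction at 20 CPM or more, or the list's most abundant member; or as members of the precursor, cDC1 identity, transcription factor, S100 and IFITM or MHC class II lists. The sterol genes other than Fdps, Idi1, Hmgcs1 and Cyp51, Ppp1r15a, and the genes named only for a promoter motif or a marker at 0 fall outside this rule.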

Additional observations from a re-analysis of the deposited data

Results flagged for a closer look

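The log2 difference between early and resting cells had opposite signs in 2 libraries, each beyond its own exact 95% counting interval, for 2 named genes. S100a11 was at 0.0411 in the WT library and at -0.0409 in the sGSN-/-Clec9a-/- library. Id2 was at -0.24 in the WT library and at 0.14 in the sGSN-/- library. Neither gene was called over the 3 libraries, there was 1 library per genotype, and the difference between libraries was not tested. The condition on the counting interval was set after the data were seen.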

How the results depend on the processing

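The counts over all genes, 2039 higher and 2075 lower, lay within 1.5 times these values in every alternative but 2, and the cause of each change was not tested unless the alternative's own construction, fewer cells or fewer libraries, shows it. With cells thinned to 3900 UMIs and shallower cells left out, 1317 genes were higher and 1367 lower. These 2 changes were made at once, so the part of each was not tested. Leaving out 1 library in turn gave 1270 to 1715 higher and 1309 to 1669 lower, with the lowest counts without the WT library. With the library as a replicate block, 2429 were higher and 2392 lower, so the block changed neither count by over 1.5 times. DESeq2 gave 1626 and 1503, no TMM factors 1875 and 1995, and no filter 1960 and 2450. With early and resting cells alone as the denominator, the early share was 25.1%, 31.5% and 27.2% and the resting share 74.9%, 68.5% and 72.8%. Of 170 named genes called, 121 kept their call and direction in all 14 alternatives that gave a value, and each alternative kept at least 145, the fewest in cluster 1 alone. Of 2909 values of named genes under alternatives, 19 changed sign with a call on at least 1 side; sign changes with no call on either side were not counted. In cluster 4 alone, Bcl11a was at 0.43, Icam1 at 0.0332, Ikzf1 at 0.0813, Irak2 at 0.0374, Jun at 0.0604, S100a11 at -0.25, Tmsb4x at -0.27 and Tnfaip3 at 0.24. In cluster 1 alone, Fcer1g was at -0.35, H2-Eb1 at 0.0125, Hepacam2 at 0.28, Isg15 at -0.0120, Nfkbiz at -0.10, Snx22 at 0.0113, Spn at -0.0180 and Stat5a at -0.51. Without cluster 5, Creld2 was at 0.81 and Hspa5 at 0.13, and without cluster 0, Sub1 was at 0.18. Early sums held 4818341 to 6873652 UMIs, and the depth limits what can be said of genes at a few CPM.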
